A study of Mus musculus with 8 samples.

Results

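The postnatal maturation of the control heart was followed in the 4 db/m libraries of a series of 8 RNA-seq libraries from mouse hearts, by setting the library of 4 weeks against those of 12, 24 and 32 weeks. All db/m libraries and no others were taken, by genotype and age. The db/m mice were untreated males on the C57BLKS/J background (named C57BL/KsJ in the labels), labelled db/+, and carry 1 wild-type copy of the leptin receptor gene. The study's methods give a fast of 12 h ahead of sampling for its mice. The other 4 libraries came from db/db mice of the same 4 ages, which lack functional leptin receptor and develop obesity and type 2 diabetes, and they are used here only to see whether a change with age also occurred in hearts that shared no library with the db/m series. There was 1 library for each genotype and age, and the sources used here do not say whether a library holds the RNA of 1 heart or of several. The study's methods assign more db/db mice to RNA-seq than there are db/db libraries here. These methods name hearts of 4, 24 and 32 weeks, so the library of 12 weeks is known here from its labels only. The db/m libraries held 14445436 counts at 4 weeks and 20133497 to 22214678 counts later.

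In the weeks after birth the heart stops adding cardiomyocytes and finishes its growth by enlarging those it has. Fibroblasts lay down the collagen scaffold mainly in this early period and then become quiescent, the contractile apparatus and the calcium store take their adult form, and energy metabolism settles on mitochondrial oxidation of fatty acids. In whole tissue, fewer cells of a type and less RNA per cell cannot be told apart.

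The libraries were first checked against markers of the heart and of neighbouring tissues. The cardiomyocyte genes were strong in each of the 4 libraries, with Myh6, the main myosin heavy chain of the adult mouse heart, at 36680 CPM (counts scaled to a common library size) at 4 weeks and 32270 to 33840 later. The 4-week db/m library stood apart because it also held transcripts that heart muscle does not make. Gh, the growth hormone gene of the pituitary at chr11:106300271-106301865 (GRCm38), had 11546 counts at 4 weeks against 34, 43 and 32 counts at 12, 24 and 32 weeks. In the db/db hearts it had 41, 7, 0 and 11 counts at the same 4 ages, so only the db/m library of 4 weeks was high.

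Pou1f1, the transcription factor that switches on Gh in the pituitary, had 377 counts at 4 weeks and 2, 0 and 1 later. Its upstream sequence is shown because POU1F1 is known to act on its own gene and on Gh in these cells, and both were high in 1 library only. The 250 bases before RefSeq's start of the gene lie at chr16:65520262-65520511 on the plus strand (GRCm38.p6). Capitals mark TATAAA and TATNCAT, each searched on both strands, and the match to TATNCAT on the opposite strand overlaps the first TATAAA.
Pou1f1: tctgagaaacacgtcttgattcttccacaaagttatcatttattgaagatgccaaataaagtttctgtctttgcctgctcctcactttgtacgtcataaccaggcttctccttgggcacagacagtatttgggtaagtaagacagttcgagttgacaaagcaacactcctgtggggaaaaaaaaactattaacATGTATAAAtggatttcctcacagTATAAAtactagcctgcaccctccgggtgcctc
TATAAA was found in 12.4% and TATNCAT in 7.92% of the 32851 RefSeq promoters of that length, and a match is a description of the letters only.

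Of 7 genes of growth hormone cells, a list put together after the values were seen, the sum was 732.0 CPM at 4 weeks and 1.84 to 2.31 CPM later, and Ghrhr was at 0 counts. Of 16 genes of neuroendocrine secretion, likewise chosen after the values were seen, the sum was 138 CPM at 4 weeks and 1.85 to 2.66 later, with Scg2, a granin of secretory vesicles, at 311 counts against 0, 0 and 2. Hormones of other pituitary cells were at or near 0 in the same library, with Prl, Cga, Tshb and Fshb at 0 counts and Pomc at 3. Genes of fast skeletal muscle moved with them. Their 12 markers summed to 166 CPM at 4 weeks and 33.8 to 70.6 later, and 10 of the 12 stood at least 1.5-fold above each older library. Myh4, a fast myosin that the heart does not use, had 864 counts at 4 weeks and 0, 2 and 2 later. Of 9 bone genes, also listed after the values were seen, the sum was 21.7 CPM at 4 weeks and 0.262 to 0.435 CPM later. The counts came mainly from Col24a1, with 208 counts against 2, 2 and 1, Lrrc15, with 79 against 2, 1 and 0, and Col10a1, the collagen of hypertrophic cartilage, with 66 against 0, 1 and 0. Bglap, Ibsp, Sp7 and Mepe were at 0 in that library, and all 9 bone marrow markers had at most 3 counts there. The 32-week library differed in another way, with the atrial light chain Myl7 at 552 counts against 0, 0 and 0 in the younger db/m libraries. The part of these tissues in the changes described below was not tested, other than by the values given beside them.

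**Figure D1:**
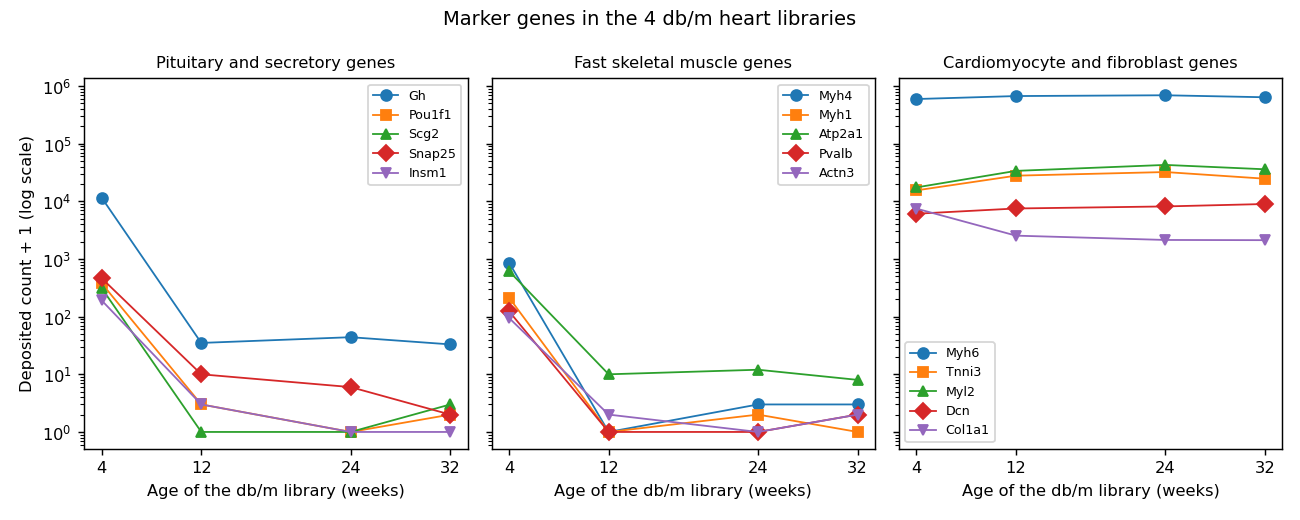
Deposited counts plus 1 on a log axis against age in weeks, for 1 library an age, with genes of the pituitary and of secretion, of fast skeletal muscle, and of cardiomyocytes and fibroblasts in the 3 panels. Gh fell from 11546 counts at 4 weeks to 34, 43 and 32, and Myh4 from 864 to 0, 2 and 2, while Myh6, Tnni3, Myl2 and Dcn stayed high at all ages.

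The number of genes that changed depended strongly on how the spread was judged. In the quasi-likelihood test of edgeR, 27 of 16266 genes fell after 4 weeks (0.166%) and 5 rose (0.0307%) at an adjusted p under 0.05, and 2489 genes had an unadjusted p under that value. The test took its spread from the 3 older libraries, which themselves differ in age, and assumed that the single library of 4 weeks varies like them. An exact permutation of 4 libraries cannot go below a one-sided p of 0.25, so single genes were judged only by fits across all genes. Of the 32 calls, 3 (Gh, Hist2h3c2 and Atp2a1) also passed whichever older library was left out. Without the library of 24 weeks these 3 were the only calls, without that of 12 weeks there were 15, and without that of 32 weeks there were 1554. With DESeq2's Wald test 486 genes passed, and with limma voom 3. The counts of list members given below are to be read beside these counts over all genes in the same setting. Without the library of 32 weeks, falls and rises over all genes were near equal in number.

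A count that rests on no model of the spread gives the wider picture, though it depends on the scaling. At 4 weeks 1198 genes (7.37%) stood at least 1.5-fold above each of the 3 older db/m libraries and 851 genes (5.23%) at least 1.5-fold below each. In the db/db hearts the same count gave 488 genes (3.00%) and 415 genes (2.55%). Under scaling by total counts alone the db/m counts were 1890 above and 475 below. Of the genes that stood higher at 4 weeks in db/m hearts 142 did so in db/db hearts too, which is 11.9% of the db/m genes and 29.1% of the db/db genes. Of those that stood lower 91 were shared, 10.7% and 21.9%. By contrast, 58 of the 1198 db/m genes that stood higher at 4 weeks stood lower in db/db hearts, and 24 of the 851 the other way. Over all genes tested, 2.55% stood lower and 3.00% stood higher at 4 weeks in db/db hearts. Below, "outside the range" means past each older library of the same genotype by at least 1.5-fold, and a log2 change is that of the older libraries against 4 weeks.

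Many of the called falls lay in lists of genes of other tissues. Of the 27, 11 belonged to the pituitary and neuroendocrine lists, 5 to fast skeletal muscle and 2 were histone H3 genes, and 22 had at most 12 counts in each older library. Of the 16266 genes tested, 5 were in the growth hormone cell list, 15 in the neuroendocrine list and 12 in the fast muscle list. The first 2 lists were made after the values of this library were seen, so membership in them is a description and no test. The 10 largest falls among called genes of at least 50 counts were Myh4, Myh1, Scg2, Pou1f1, Gh, Stxbp5l, Esrp1, Pvalb, Insm1 and Actn3. Gh was 397-fold higher at 4 weeks than in the older libraries pooled (95% counting interval 329 to 484, adjusted p = 0.000217), and this call held in each leave-out. Pou1f1 was 471-fold higher (160 to 2294) on 3 counts in the older libraries together, and Myh4 810-fold higher (315 to 2978) on 4, and neither passed without the library of 24 weeks (adjusted p = 0.0676 and 0.0788). Atp2a1, the calcium pump of fast muscle, had 615 counts at 4 weeks and 9, 11 and 7 later, and its log2 change of −6.40 ± 0.23 (SE) had an adjusted p of 0.00278. All intervals given here cover counting error only.

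Type I collagen, the main product of fibroblasts in the heart's scaffold, was among the called falls. Col1a1, the main chain of fibrillar collagen at chr11:94936224-94953042 (GRCm38), stood at 461.5 CPM at 4 weeks and at 124.0, 99.8 and 112 CPM at 12, 24 and 32 weeks. The 4-week value lay far above the other 3, which were close to each other. The log2 change was −2.04 ± 0.15 (SE), a 4.13-fold higher level at 4 weeks, with an adjusted p of 0.0289 in edgeR's test. The call was lost without the library of 12 weeks (adjusted p = 0.0515), without that of 24 weeks (0.183), with all 8 libraries in the fit (0.101) and with limma voom, while the log2 change stayed between −2.12 and −1.97 in the 3 leave-outs. In db/db hearts, which share none of these libraries, Col1a1 stood at 303 CPM at 4 weeks and at 111, 98.7 and 45.0 CPM later, a log2 change of −1.84 that did not pass (adjusted p = 1 in edgeR's test).

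The partner chains followed the same course. Col1a2 stood at 443 CPM at 4 weeks and at 155, 119.8 and 153 CPM later, with a log2 change of −1.64 ± 0.17 (adjusted p = 0.0612). Col3a1, the chain of type III collagen, stood at 870.2 CPM and then at 330.3, 234 and 245 CPM, with a log2 change of −1.69 ± 0.21 (adjusted p = 0.0805). Neither gene passed edgeR's test against all 3 older libraries or limma voom, while both passed DESeq2's Wald test (adjusted p = 6.57e-09 and 1.11e-07) and edgeR's without the library of 32 weeks (0.00127 and 0.00323), and Col1a2 also with all 8 libraries in the fit (0.0485). For both the 4-week value lay above all 3 later ones. The corresponding db/db log2 changes were −1.44 for Col1a2 and −1.73 for Col3a1.

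The promoter of Col1a2 is shown as the one available for the type I chains. The 250 bases before RefSeq's start lie at chr6:4505368-4505617 on the plus strand (GRCm38.p6), and capitals mark CCAAT and GGGCGG on either strand. The deposited table starts the gene further upstream, at position 4504814, so these bases lie within the gene as it is given there.
Col1a2: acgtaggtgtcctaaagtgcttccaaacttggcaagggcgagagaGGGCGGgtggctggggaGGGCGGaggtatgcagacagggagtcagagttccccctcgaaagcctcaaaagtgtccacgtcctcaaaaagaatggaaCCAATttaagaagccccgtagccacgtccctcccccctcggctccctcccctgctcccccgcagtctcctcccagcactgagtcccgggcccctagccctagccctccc
CCAAT stood 109 bases before the start, and GGGCGG 205 and 188 bases before it. Among the collagen genes listed, 15 of 26 had an entry, and 13 of these held GGGCGG (86.7%, against 32.7% of all promoters) and 5 held CCAAT (33.3%, against 33.8%). A listed gene was counted if any of its entries matched, while the share of all promoters counts single entries. These shares are thus unlike measures. GGGCGG was also common in the mitosis and replication lists described below, at 80.0% and 71.4% of the genes with an entry.

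The fibrillar collagens and the enzymes that assemble them leaned higher at 4 weeks. Of 26 genes tested, 1 fell by the test, 12 stood above the range of the older libraries and 1 below it, and the median log2 change was −0.65, against 0.02 over all genes. DESeq2's Wald test called 9 of them lower and limma voom 0, and without the library of 32 weeks edgeR's called 12 lower and 1 higher. The 12 included the fibril-associated Col12a1 (log2 change −3.46) and Col14a1 (−1.59), the fibrillar Col11a1 (−2.83) and Col5a1 (−1.03), and the crosslinking enzymes Lox (−1.71) and Loxl2 (−1.17). The exception was P4ha1, a collagen prolyl hydroxylase, which stood below the range at 4 weeks (log2 change 1.53). Dcn, the fibroblast proteoglycan decorin, was at 376 CPM at 4 weeks and 367 to 476 later, with the 4-week value inside the later range. The 7 fibroblast markers together had a median log2 change of −0.06.

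The db/db hearts showed the same direction for this group, with 10 genes above the range at 4 weeks, 9 of them among the 12 of db/m, and a median log2 change of −0.64. The db/db library of 4 weeks held more valve and cartilage RNA than any other, with Fmod at 622 counts, Comp at 473 and a marker sum of 72.5 CPM against 6.08 to 11.0 in the older db/db libraries. In db/m hearts that sum was 5.56 CPM at 4 weeks and 3.57, 7.20 and 18.1 CPM later, so the 4-week value lay within the later range. The sum of the bone genes, given above, was high at 4 weeks in db/m hearts, and it was 0.686 CPM at 4 weeks and 0.247 to 0.472 later in db/db hearts. The part of these tissues in the collagen values was not tested.

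Genes of elastic fibres, matricellular proteins and basement membranes leaned the same way. Of 24 elastic fibre and matricellular genes, 8 stood above the range at 4 weeks and 0 below it, with a median log2 change of −0.36. Without the library of 32 weeks these became 13 and −0.72, and under scaling by total counts alone the median was −0.59. Eln, the elastin gene, stood at 121.8 CPM and then at 62.3, 58.2 and 49.2 CPM (log2 change −1.11 ± 0.16, adjusted p = 0.101). Sparc, a collagen-binding protein, stood at 643 CPM and then at 308, 214 and 259.9 CPM (−1.303 ± 0.207, adjusted p = 0.107). The 4-week library was the highest for both, with no overlap.

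Fn1, the fibronectin gene, had a log2 change of −1.36 ± 0.17 (adjusted p = 0.0771), and Fbn2, the fibrillin of growing tissue, of −1.67 ± 0.40 (adjusted p = 0.18). Of 20 basement membrane genes, 6 stood above the range and 0 below, with a median of −0.56. Its members with the most counts moved less, with Col4a1 at −0.70 ± 0.27 and Hspg2, which encodes perlecan, at −0.31 ± 0.13. By edgeR's test 0 genes of both lists passed, with 7 of the 24 and 13 of the 20 at an unadjusted p under 0.05, all lower after 4 weeks. DESeq2's Wald test called 5 and 4 of them lower, limma voom 0, and edgeR's test without the library of 32 weeks 11 and 10. Among db/db hearts 11 of the 24 and 5 of the 20 stood above the range at 4 weeks, with medians of −0.79 and −0.66.

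**Figure D2:**
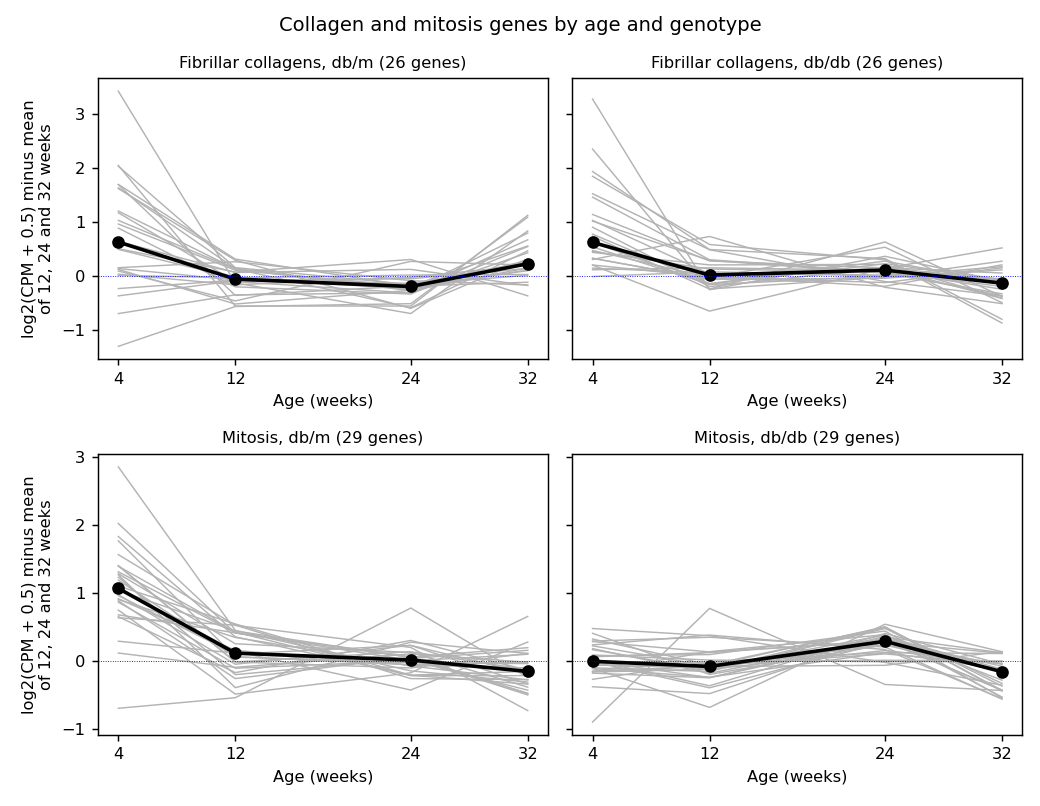
log2(CPM + 0.5) minus its mean over 12, 24 and 32 weeks, against age in weeks, for the genes of the collagen list (top) and the mitosis list (bottom) in db/m (left) and db/db (right) hearts, with 1 library an age; grey lines are genes and the black line is their median. The collagen median was high at 4 weeks in both genotypes, and the mitosis median was high at 4 weeks in db/m hearts and level in db/db hearts.

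Cell division genes also stood higher at 4 weeks in db/m hearts, and stood level with age in db/db hearts. Of 29 mitosis genes tested, 0 passed edgeR's test, 18 had an unadjusted p under 0.05 (all lower after 4 weeks), DESeq2's Wald test called 3 and limma voom 0. Leaving out the library of 32 weeks, edgeR called 8 of them lower, and with all 8 libraries in the fit 1, Top2a (adjusted p = 0.0237). At 4 weeks 23 of the 29 stood above the range of the older libraries and 0 below it, and the median log2 change was −1.41. Top2a, the topoisomerase that untangles chromosomes in dividing cells, stood at 28.0 CPM at 4 weeks and at 4.84, 3.04 and 2.65 CPM later (log2 change −2.99 ± 0.33, adjusted p = 0.065). Mki67, the proliferation marker, stood at 17.6 CPM and then at 11.7, 6.73 and 6.10 CPM (−1.11 ± 0.39, adjusted p = 0.28). The member with the most counts, Cenpf, did not follow, with 16.3 CPM at 4 weeks and 18.0, 45.7 and 22.2 CPM later.

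In db/db hearts 0 of these 29 genes stood outside the range in either direction and the median log2 change was 0.02. Top2a there stood at 4.53 CPM at 4 weeks and at 4.46, 5.67 and 4.20 CPM later, all near the older db/m hearts. The difference between the genotypes in the change of Top2a was 3.07 ± 0.53 on the log2 scale (SE) and did not pass (adjusted p = 0.476 in edgeR's interaction test). The mitosis genes thus stood high in the library that also held the pituitary and fast muscle transcripts, and whether they came with these was not tested.

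Replication genes differed less. Of 26 tested, 9 stood above the range at 4 weeks and 0 below, with a median log2 change of −0.72 in db/m hearts and of 0.18 in db/db hearts. Under scaling by total counts alone 18 stood above the range. Mcm5, a subunit of the replicative helicase, stood at 15.4 CPM at 4 weeks and at 3.52, 3.36 and 2.71 CPM later (log2 change −2.27 ± 0.24, adjusted p = 0.0612). Its db/db log2 change was 0.58, and the difference between the genotypes did not pass (adjusted p = 0.328). The 2 members with the most counts moved little, with Rrm1 at −0.41 ± 0.20 and Pcna, the sliding clamp, at 0.09 ± 0.18. With edgeR 0 of the 26 passed, with 8 at an unadjusted p under 0.05, and DESeq2's Wald test called 2 and limma voom 0. Without the library of 32 weeks edgeR called 4 lower.

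The promoters of Top2a and Mcm5 are shown as those of the dividing-cell genes with the lowest p in their lists. They are the 250 bases before RefSeq's start at chr11:99024190-99024439 on the minus strand and chr8:75109259-75109508 on the plus strand (GRCm38.p6), with CCAAT on either strand in capitals.
Top2a: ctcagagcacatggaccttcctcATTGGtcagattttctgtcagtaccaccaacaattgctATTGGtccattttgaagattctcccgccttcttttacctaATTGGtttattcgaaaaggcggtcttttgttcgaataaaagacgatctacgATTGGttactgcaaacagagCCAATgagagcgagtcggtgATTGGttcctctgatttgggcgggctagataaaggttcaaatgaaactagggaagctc
Mcm5: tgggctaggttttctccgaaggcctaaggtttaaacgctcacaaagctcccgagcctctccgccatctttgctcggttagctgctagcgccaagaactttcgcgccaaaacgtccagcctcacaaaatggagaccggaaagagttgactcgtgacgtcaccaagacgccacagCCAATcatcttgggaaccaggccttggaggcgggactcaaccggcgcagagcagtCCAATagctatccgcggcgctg
Top2a held 6 matches and Mcm5 held 2. Of the 30 mitosis genes 25 had an entry, and 20 of these held CCAAT (80.0%, against 33.8% of all promoters), while of 26 replication genes 21 had an entry and 11 held it (52.4%). As for the collagens, a listed gene was counted if any of its entries matched, while the share of all promoters counts single entries. These shares are thus unlike measures.

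Histone genes belonged to the same picture in count but carried a doubt about read assignment. Of 60 replication-dependent histone genes, 26 stood above the range at 4 weeks and 1 below, with a median log2 change of −0.88 in db/m hearts and 0.10 in db/db hearts. Hist2h3c2, a histone H3 gene at chr3:96238108-96239127, had 2438 counts at 4 weeks and 125, 132 and 99 later (log2 change −4.68 ± 0.15, adjusted p = 0.00255). It shares 64.2% of its 31-base stretches with a neighbour, Hist2h3c1. Gm20634, a non-coding gene that overlaps Hist2h3c1 on the same strand, was called in the opposite direction, with 26 counts at 4 weeks and 954, 1091 and 860 later (log2 change 4.89 ± 0.23, adjusted p = 0.00729, and 0.0788 without the library of 24 weeks). The db/db hearts had 910, 1246, 27 and 693 counts at the 4 ages. Gm20634 also overlaps Hist2h2aa1 on the same strand. The counts of Hist2h2aa1 at the 4 ages were 599, 430, 671 and 344 in db/m hearts and 491, 728, 1470 and 416 in db/db hearts. Summed over Hist2h3c2, Hist2h3c1, Hist2h3b and Gm20634, the counts were 2586 at 4 weeks and 1085, 1226 and 964 later in db/m hearts, a smaller difference than that of Hist2h3c2 or Gm20634 alone. In db/db hearts the sum was 1002, 1362, 187 and 792 at the 4 ages. Hist2h2aa1 is not in these sums, which are raw counts of libraries of unlike size. The values of the single genes are uncertain, since the reads of genes that share sequence may be divided in more than 1 way.

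Of 6 inhibitors of cyclin-dependent kinases tested, which hold back division, 0 passed edgeR's test, 0 had an unadjusted p under 0.05 and 0 stood outside the range. DESeq2's Wald test and limma voom called 0 of them. Cdkn1a, which encodes p21, stood at 30.3, 15.0, 20.8 and 101 CPM at the 4 ages, highest at 32 weeks, and Cdkn1b, which encodes p27, at 39.7, 37.0, 39.1 and 35.0 CPM. Ccnd1, cyclin D1 of the G1 phase, stood lower at 4 weeks than later, at 27.5 CPM against 51.1, 60.4 and 62.1 CPM (log2 change 1.07 ± 0.18, adjusted p = 0.117).

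Among imprinted growth genes, 1 of 18 fell by the test and 3 stood above the range at 4 weeks. Many genes of this list, though not all, are expressed mainly from 1 parental copy, and several are known to be silenced as organs mature. The counts do not tell parental copies apart. The 3 genes above the range became 5 under scaling by total counts alone or without the library of 24 weeks, and 6 of 17 without that of 32 weeks. The call was Gnas, the stimulatory G protein subunit, at 1081 CPM at 4 weeks and 315, 312 and 354.5 CPM later (log2 change −1.72 ± 0.13, adjusted p = 0.0289). Without the library of 12 or of 24 weeks it did not pass (adjusted p = 0.082 and 0.204). Gnas was flat in db/db hearts, at 340.1 CPM at 4 weeks and 332 to 385 later, and it was high in db/m only in the library with the Gh transcripts.

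Peg3, an imprinted zinc finger gene, stood at 147 CPM at 4 weeks and at 36.3, 28.0 and 19.9 CPM later (−2.39 ± 0.30, adjusted p = 0.0805). It stood above the range at 4 weeks in db/db hearts as well, with a log2 change of −1.02. Igf2, the fetal growth factor, was already low and near its later level, at 28.9 CPM and then 24.7, 16.6 and 23.1 CPM (−0.43 ± 0.26, adjusted p = 0.488), and its neighbour H19 was at 7.16, 3.42, 8.04 and 7.16 CPM. The list had a median of −0.32, which was −0.55 under total counts and −0.51 without the library of 32 weeks, and of −0.71 among db/db hearts.

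Oncofetal RNA-binding and chromatin genes were too weakly expressed to describe as a group, with 5 of 10 tested. The members with the most counts, Sox4 and Igf2bp2, had log2 changes of 0.22 ± 0.46 and 0.24 ± 0.36. Pabpc1, the poly(A)-binding protein of the cytoplasm, was a further call outside the lists, at 408 CPM at 4 weeks and 136 to 147.5 CPM later (log2 change −1.54 ± 0.12, adjusted p = 0.0289), with a db/db log2 change of −0.12. It did not pass without the library of 12 weeks (adjusted p = 0.0752) or of 24 weeks (0.204).

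Among the 5 called rises, the ion channel gene was Scn4b, the beta-4 subunit of the voltage-gated sodium channel that shapes the cardiac sodium current, at chr9:45138437-45154152 (GRCm38). It stood at 5.99 CPM at 4 weeks and at 91.2, 111 and 73.8 CPM at 12, 24 and 32 weeks. The 4-week value was far below all others. The log2 change was 3.94 ± 0.32, a 15.5-fold higher level later, with an adjusted p of 0.0347. The call was lost without the library of 12 weeks (adjusted p = 0.056) or of 24 weeks (0.147), with all 8 libraries in the fit (0.199) and with limma voom. Scn4b was lowest at 4 weeks in db/db hearts as well, at 15.1 CPM against 139.0, 53.7 and 25.3 CPM, with a log2 change of 2.26.

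Its promoter is shown as that of the 1 called riser with an adult ion channel role. The 250 bases before RefSeq's start lie at chr9:45138374-45138623 on the plus strand (GRCm38.p6) and hold 1 match to CCAAT, in capitals, on the opposite strand 67 bases before the start. Since the deposited table starts the gene further upstream, most of these bases lie within the gene as it is given there.
Scn4b: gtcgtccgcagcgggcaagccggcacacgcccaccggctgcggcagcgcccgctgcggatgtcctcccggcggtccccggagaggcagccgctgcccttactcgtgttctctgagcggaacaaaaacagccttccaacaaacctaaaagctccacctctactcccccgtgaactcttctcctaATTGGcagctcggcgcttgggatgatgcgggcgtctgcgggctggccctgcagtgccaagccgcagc

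The other 4 called rises were Mfap3, Cnih1, Gm4673 and Gm20634, the last of them described with the histones. Mfap3, a membrane glycoprotein associated with microfibrils, stood at 3.33 CPM at 4 weeks and at 24.2, 26.2 and 25.8 CPM later (log2 change 2.93 ± 0.21, adjusted p = 0.0281). The db/db hearts had 26.2 CPM already at 4 weeks and at 25.3, 26.5 and 23.8 CPM later, so the db/m library of 4 weeks alone was low among all 8. Cnih1, a cargo receptor of the secretory pathway, stood at 8.77 CPM at 4 weeks and at 32.1, 32.2 and 35.0 CPM later (1.92 ± 0.18, adjusted p = 0.0476). Cnih1 stayed low throughout in db/db hearts, at 7.55, 8.51, 9.53 and 10.8 CPM. Gm4673, a gene overlapped by Gm17077 on its own strand and by Lsr on the other, had 16 counts at 4 weeks and 233, 276 and 187 later (3.52 ± 0.33, adjusted p = 0.0462), while db/db hearts had 28, 292, 24 and 315 counts at the 4 ages, with the library of 24 weeks as low as that of 4 weeks. Without the library of 24 weeks Mfap3, Cnih1 and Gm4673 did not pass (adjusted p = 0.204, 0.293 and 0.237), nor without that of 12 weeks (0.056, 0.0848 and 0.0833).

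**Figure D3:**
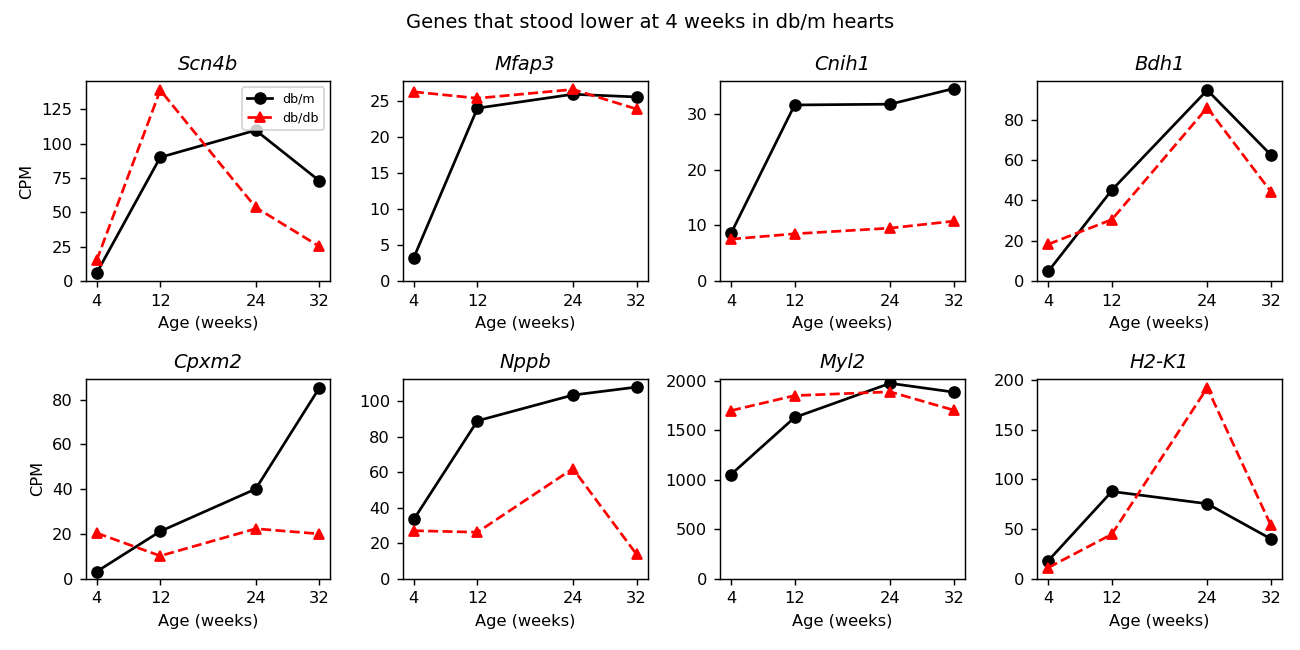
CPM against age in weeks for 8 genes that stood lower at 4 weeks in db/m hearts (black circles), with the db/db hearts beside them (red triangles), 1 library a point. Scn4b and Bdh1 were lowest at 4 weeks in both genotypes, Mfap3 was low at 4 weeks in db/m only, and Cnih1 was high only in the older db/m hearts.

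As fewer than 10 genes passed in this direction, the largest differences outside the range among genes with no call complete the picture. Bdh1, the mitochondrial enzyme that interconverts the ketone bodies, stood at 4.88 CPM at 4 weeks and at 45.6, 95.9 and 63.2 CPM later (log2 change 3.81 ± 0.54, adjusted p = 0.0959). It was lowest at 4 weeks in db/db hearts too, with a log2 change of 1.55. Cpxm2, a carboxypeptidase-like protein, stood at 3.27 CPM at 4 weeks and at 21.4, 40.6 and 86.2 CPM later (3.91 ± 0.97, adjusted p = 0.189), while its db/db log2 change was −0.22. Others by rank were Zfp865, Sgsm3 and Cnga3, with at most 3 counts at 4 weeks and adjusted p-values of 0.261 to 0.275.

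Most genes of energy metabolism had somewhat higher estimates after 4 weeks. Of 37 genes of fatty acid uptake and oxidation 34 did so, against 52.1% of all genes tested, and the median log2 change was 0.50 (0.28 in db/db hearts). At 4 weeks 3 of the 37 stood below the range, a share near the 5.23% of all genes, and 0 above. The 7 cardiomyocyte markers, which are all sarcomere or calcium genes, had a median of 0.42 in db/m and 0.03 in db/db hearts, with 6 of 7 estimates higher later, and their part in these values was not tested. Cpt1b, which admits long-chain fatty acids to the mitochondrion, stood at 456 CPM and then at 661, 824 and 619 CPM (0.62 ± 0.20, adjusted p = 0.264). Lpl, the lipase that frees them from lipoproteins, had a log2 change of 0.55 ± 0.18, and Pdk4, the kinase that restrains glucose oxidation, of 0.54 ± 0.55, with 2257 CPM at 4 weeks and 3463, 4698 and 1674 later. Pdk4 at 32 weeks thus lay below its level at 4 weeks. By edgeR's test 0 of the 37 passed, 17 had an unadjusted p under 0.05 (all higher), DESeq2's Wald test called 2 and limma voom 0. The 32-week library held the lower later values, and without it 13 stood below the range and edgeR's test called 20 higher.

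All 14 genes of ketone body and branched-chain amino acid oxidation had a higher estimate after 4 weeks, with a median of 0.61 in db/m and 0.24 in db/db hearts, and 3 stood below the range at 4 weeks, or 1 under scaling by total counts alone. Oxct1, the enzyme that commits ketone bodies to oxidation, stood at 443 CPM and then at 725, 726 and 1155 CPM (0.97 ± 0.33, adjusted p = 0.269). Acat1 stood at 230.4 CPM and then at 411, 454 and 357 CPM (0.82 ± 0.18, adjusted p = 0.161). The edgeR test passed 0, with 8 of 14 at an unadjusted p under 0.05, and DESeq2's Wald test called 2 and limma voom 0. The edgeR test called 7 higher when the library of 32 weeks was left out.

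Glycolysis did not move against fatty acid oxidation. Its 22 genes had a median log2 change of 0.39, with Aldoa at 0.38 ± 0.18 and Pdha1, a subunit of pyruvate dehydrogenase, at 0.37 ± 0.15. At 4 weeks 1 of them stood below the range, or 5 without the library of 12 weeks, and the median was 0.16 under scaling by total counts alone. The 13 genes of the mitochondrial DNA all had higher estimates, with a median of 0.66 against 0.11 in db/db hearts. Of these 2 stood below the range at 4 weeks, 0 under scaling by total counts alone and 7 without the library of 24 weeks. mt-Co1 stood at 57980 CPM and then at 81870, 84180 and 92900 CPM (0.57 ± 0.21, adjusted p = 0.302), and mt-Co3 had a log2 change of 0.78 ± 0.19 (adjusted p = 0.18). Of the nuclear and mitochondrial genes of oxidative phosphorylation in KEGG, 109 of 120 had a higher estimate, with a median of 0.45 against 0.04 in db/db hearts. In the glycolysis and mitochondrial DNA lists 0 genes passed edgeR's test, with 10 of 22 and 6 of 13 at an unadjusted p under 0.05. DESeq2's Wald test called 1 and 2 of them, limma voom 0, and edgeR's test without the library of 32 weeks 7 and 3.

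**Figure D4:**
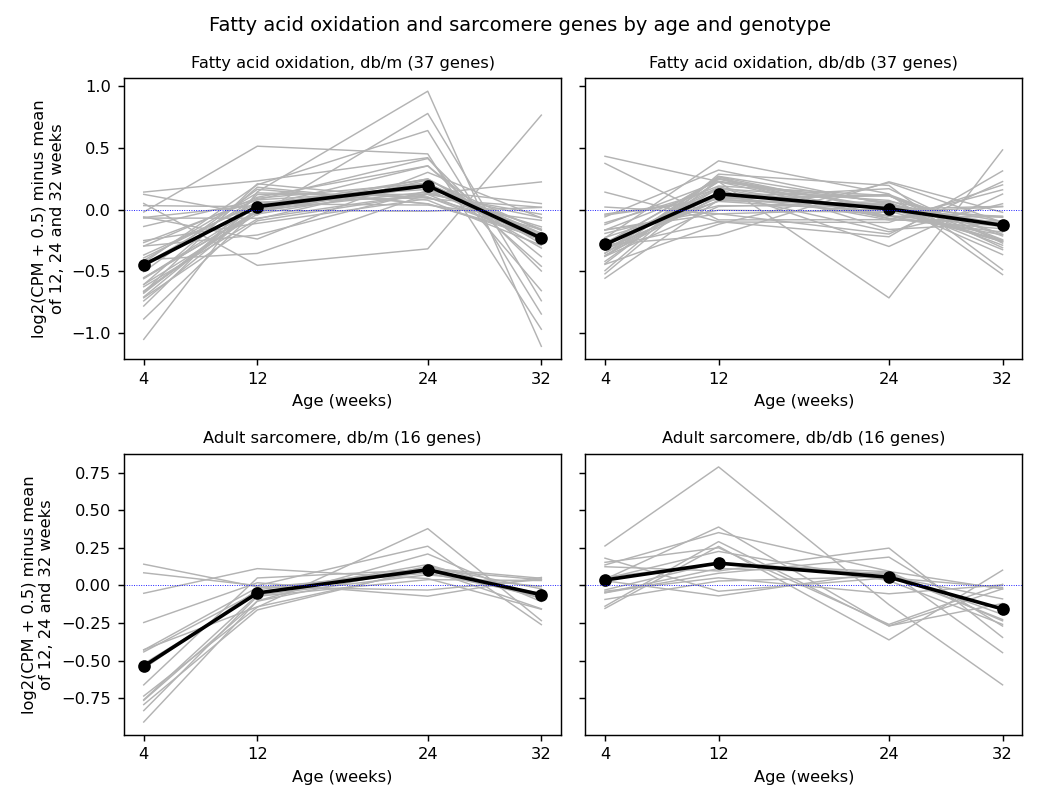
log2(CPM + 0.5) minus its mean over 12, 24 and 32 weeks, against age in weeks, for fatty acid uptake and oxidation (top) and the adult sarcomere (bottom) in db/m (left) and db/db (right) hearts, with 1 library an age; grey lines are genes and the black line is their median. Both medians were lowest at 4 weeks in db/m hearts, where the fatty acid median dropped again at 32 weeks, and the sarcomere median was not lower at 4 weeks in db/db hearts.

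Most contractile and calcium genes had lower estimates at 4 weeks in db/m hearts, and none passed edgeR's test. Of 16 adult sarcomere genes, 14 had a higher estimate later, 5 stood below the range at 4 weeks and 0 above, with a median log2 change of 0.53 in db/m and −0.03 in db/db hearts. Myl2, the ventricular regulatory light chain, stood at 1076 CPM and then at 1649, 1999 and 1906 CPM (0.78 ± 0.17, adjusted p = 0.161). Tnni3, the adult troponin I, stood at 956 CPM and then at 1361, 1504 and 1309 CPM (0.54 ± 0.15, adjusted p = 0.215), and Actn2, the Z-disc crosslinker, had a log2 change of 0.51 ± 0.16. The genes with the most counts moved less, with Ttn, which encodes titin, at 0.23 ± 0.20 and Myh6 at −0.16 ± 0.18. Myh6 and Myom2 (−0.08), an M-band protein, were the 2 with lower estimates later. In edgeR's test 0 of the 16 passed and 11 had an unadjusted p under 0.05 (all higher), while DESeq2's Wald test called 5, limma voom 0 and edgeR's test without the library of 32 weeks 7.

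Of 19 calcium handling genes, 6 stood below the range at 4 weeks and 1 above, with a median of 0.34 in db/m and −0.05 in db/db hearts. The one above was Bin1, a membrane-shaping protein of the T-tubules, with a log2 change of −0.87 (adjusted p = 0.175). Casq2, the calcium buffer of the store, had a log2 change of 1.16, Cacna1h, a T-type channel, of 2.11, and Hrc of 0.96. Atp2a2, the cardiac calcium pump, stood at 10300 CPM and then at 14730, 15290 and 13040 CPM (0.48 ± 0.18, adjusted p = 0.313), and Ryr2, the release channel, at 0.10 ± 0.14 on the log2 scale. In edgeR's test 0 passed, 8 were higher and 2 lower at an unadjusted p under 0.05, and DESeq2's Wald test called 7 higher and limma voom 0, and without the library of 32 weeks edgeR's called 6 higher and 2 lower. When libraries were scaled by their total counts alone, the median over all genes moved to −0.2, and 0 sarcomere genes, 2 calcium genes and 0 fatty acid genes then stood below the range and 2 calcium genes above it, although the 3 list medians stayed positive at 0.31, 0.12 and 0.28.

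The fetal myosin was not highest at 4 weeks, by the value of 1 older library. Myh7, the slow myosin of the fetal and stressed ventricle, stood at 911 CPM at 4 weeks and at 366, 723 and 1530 CPM later. The 4-week value lay inside the later range (log2 change −0.06 ± 0.73, positive without the library of 12 or 24 weeks). Without the library of 32 weeks the log2 change was −0.742, with the 4-week value above those of 12 and 24 weeks. Nppb, the natriuretic peptide B gene, stood lower at 4 weeks, at 34.3 CPM against 90.2, 105.0 and 109 CPM (1.57 ± 0.18, adjusted p = 0.0686). Ankrd1, a stretch-responsive titin-binding protein, stood at 366 CPM and then at 668, 629 and 967 CPM (1.04 ± 0.29, adjusted p = 0.214). Of 11 fetal and stress genes tested, 2 stood below the range, 0 above, and the median was 0.96, which became −0.08 without the 32-week library, where edgeR called 2 higher. The atrial markers were higher in that library, summing to 413 CPM at 32 weeks against 94.6, 117.5 and 125 CPM at 4, 12 and 24 weeks.

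The 24 ion channel and junction genes showed no common course, with 11 lower and 13 higher estimates, Scn4b among the latter, and a median of 0.05. Beside Scn4b, Kcnj3, a subunit of the acetylcholine-gated potassium channel, stood below the range at 4 weeks, with 194 counts and then 675, 713 and 533 (1.40, adjusted p = 0.0959). Kcne1, a regulatory subunit of the slow potassium channel, stood above it, with 346 counts and then 111, 44 and 75 (−2.48, adjusted p = 0.133), and was above the range in db/db hearts too (−2.09). Leaving out the library of 32 weeks, edgeR called 4 higher and 3 lower. Hcn2, a pacemaker channel, stood at 45.6 CPM at 4 weeks and at 30.6, 21.6 and 21.5 CPM later (−0.89 ± 0.25, adjusted p = 0.214). Cacna1g, a T-type calcium channel of the calcium handling list, had a log2 change of −0.77 ± 0.22 (adjusted p = 0.219). In db/m hearts neither stood outside the range, while both stood above it at 4 weeks in db/db hearts, with log2 changes of −1.03 and −1.42.

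Immune genes leaned in 2 directions in db/m hearts, and 0 of those listed passed edgeR's test. Of 19 genes of antigen presentation 17 had a higher estimate after 4 weeks, 3 stood below the range at 4 weeks and 0 above, and the median log2 change was 0.49. The 3 became 1 under scaling by total counts alone, 5 without the library of 24 weeks and 7 without that of 32 weeks. H2-K1, a class I heavy chain, stood at 18.5 CPM and then at 89.0, 76.5 and 40.6 CPM (1.89 ± 0.49, adjusted p = 0.198), and H2-Eb1, a class II chain, at 8.52 CPM and then at 24.4, 24.7 and 13.8 CPM (1.299 ± 0.402, adjusted p = 0.246). Both were lowest at 4 weeks in db/db hearts too, with log2 changes of 3.11 and 2.31. H2-Q7 had a log2 change of 2.21. H2-D1 and B2m, with the most counts of the list, had log2 changes of 0.49 ± 0.17 and 0.78 ± 0.31, and Cd74, the class II chaperone, of 0.16 ± 0.18. C3, the central complement protein, stood at 40.4 CPM and then at 128, 221 and 236 CPM (2.27 ± 0.41, adjusted p = 0.131), with 2.67 in db/db hearts.

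Interferon genes leaned the other way, with 6 of 22 above the range at 4 weeks, 1 below and a median of −0.69, among them Zbp1 (−1.20), Irf7 (−1.15) and Ifit1 (−1.02). The 6 became 10 under scaling by total counts alone and 13 without the library of 12 weeks. Iigp1 was near its later level, at 0.11 ± 0.48. In db/db hearts the interferon median was 1.47, and the summed level of the list there was 4068 CPM at 24 weeks against 190.3 to 361 CPM in the other libraries. Macrophage markers summed to 336.5 CPM at 4 weeks and to 188 to 237 CPM later in db/m hearts, with 3 of 12 above the range, or 6 under scaling by total counts alone or without the library of 12 weeks. In edgeR's test 0 genes of the antigen, interferon and macrophage lists passed, with 5 higher, 8 lower and 1 higher, and 5 lower at an unadjusted p under 0.05, and DESeq2's Wald test called 1, 0 and 1 and limma voom 0. Calls by edgeR without the library of 32 weeks were 6 higher, 1 lower and 3 lower.

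Hormone axis genes were mostly level, while some vessel genes stood higher at 4 weeks. Igfbp3, a carrier of insulin-like growth factors, stood at 55.0 CPM at 4 weeks and at 20.8, 17.8 and 18.4 CPM later (−1.53 ± 0.16, adjusted p = 0.0607), with −0.29 in db/db hearts. Insr and Igf2r, receptors of insulin and of insulin-like growth factor II, had log2 changes of 0.03 ± 0.14 and 0.18 ± 0.20. Of 17 genes of endothelial growth, 4 stood above the range at 4 weeks, among them the tip cell gene Esm1 (−1.35), Plvap (−1.42) and Cxcr4 (−1.34), while the receptors Kdr (0.40 ± 0.16) and Flt1 (0.09 ± 0.35) did not. Of these 15 and 17 genes 0 passed edgeR's test, with 4 and 6 at an unadjusted p under 0.05, and DESeq2's Wald test called 2 in each list and limma voom 0. The edgeR test called 2 lower and 1 higher of the 15, and 6 lower of the 17 when the library of 32 weeks was left out.

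Retinoid genes, the subject of the study from which the libraries come, had no common course with age in db/m hearts. Rdh10, the dehydrogenase that makes retinal from retinol, stood at 6.98 CPM at 4 weeks and at 7.62, 7.20 and 8.12 CPM later (log2 change 0.13 ± 0.22, adjusted p = 0.825). Aldh1a2, the enzyme that makes retinoic acid, had 23 counts at 4 weeks and 68, 84 and 79 later (1.42 ± 0.36, adjusted p = 0.198), below the range. Cyp26b1, which clears retinoic acid, stood at 23.4, 20.1, 12.0 and 4.88 CPM at the 4 ages (−0.92 ± 0.67, adjusted p = 0.562), and its db/db log2 change was 1.84. Rxra and Dhrs3 were at 0.23 ± 0.14 and 0.03 ± 0.23. Of 15 genes tested 1 stood below the range and 1 above, the median was 0.03, and it was −0.18 under scaling by total counts alone. The edgeR test passed 0, and 4 had an unadjusted p under 0.05, and DESeq2's Wald test and limma voom called 0. Leaving out the library of 32 weeks, edgeR called 1 higher and 1 lower.

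**Figure D5:**
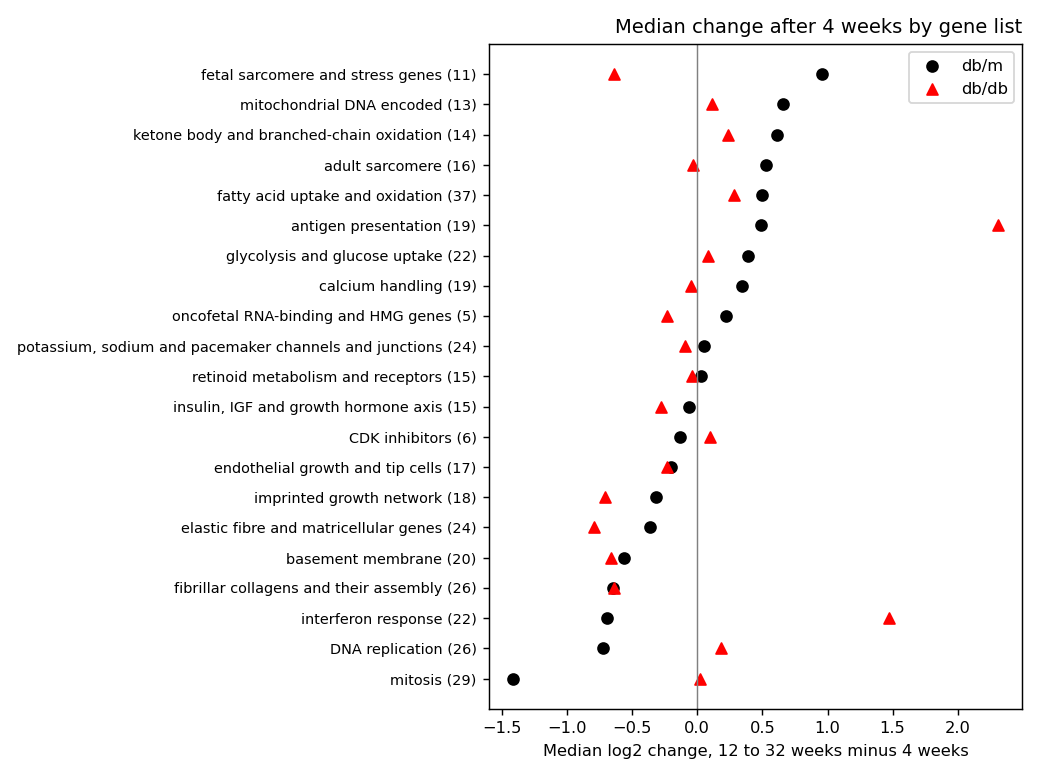
Median log2 change of the older libraries against 4 weeks for each gene list in db/m (black circles) and db/db (red triangles) hearts, with the number of genes tested in db/m hearts in brackets. The collagen medians coincide at −0.65 and −0.64, the mitosis medians are −1.41 and 0.02, and the adult sarcomere medians 0.53 and −0.03.

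The difference between the genotypes in the change after 4 weeks was tested with an interaction term over all 8 libraries. It passed for 3 of 16839 genes (0.0178%), Hist2h3c2, Atp2a1 and Mfap3, with 783 at an unadjusted p under 0.05, and for 0 when the libraries of 12, of 24 or of 32 weeks were left out. With age as a block across the genotypes, which left 2 residual degrees of freedom, it passed for 0 (lowest adjusted p 0.0843, 756 at an unadjusted p under 0.05). In each of the 3 genes the db/m library of 4 weeks lay apart from all 7 other libraries. In db/db hearts alone, 0 of 16298 genes passed (0.00%) and 505 had an unadjusted p under 0.05 in edgeR's test. For the collagen genes the interaction estimates were small, at 0.21 ± 0.60 for Col1a1, 0.21 ± 0.37 for Col1a2 and −0.03 ± 0.67 for Col3a1, none of which passed, and a p that misses the threshold does not show that the genotypes changed alike. With both genotypes fitted together, 0 of 16008 genes passed, 1514 had an unadjusted p under 0.05, and Col1a1 and Col1a2 were among those with the lowest adjusted p, at 0.143.

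The time after 12 weeks moved less for most lists. The median log2 difference of the 12-week library against the later 2 was −0.11 for the fibrillar collagens, 0.28 for mitosis, −0.01 for fatty acid oxidation and −0.08 for the adult sarcomere. It was larger for fetal and stress genes, at −0.82, and for the immediate early genes, at −1.59, both lists being higher in the library of 32 weeks. Of 15 clock genes 0 passed edgeR's test (lowest adjusted p 0.107, 6 lower and 2 higher at an unadjusted p under 0.05), and DESeq2's Wald test called 2 lower and 1 higher and limma voom 0. Calls by edgeR without the library of 32 weeks were 6 lower and 1 higher. Arntl stood below the range at 4 weeks (1.62) and Per2, Per3, Dbp, Hlf and Ciart above it, with log2 changes of −1.67 to −1.06, and the median was −0.69. In db/db hearts 1 of the 15, Hlf, stood above the range and 0 below, with a median of 0.09. The hour at which hearts were taken is not given in the sources used here.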

How the data were processed

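RNA was extracted from mouse hearts, depleted of rRNA and made into strand-specific libraries by the authors. They deposited a table of 34745 genes with raw counts and FPKM values (fragments scaled by gene length and library size) for each library. Per the labels the submitters' processing notes name HISAT2, StringTie 1.3.0 and the mouse build GRCm38/mm10 without their roles, and the program that made the counts, and whether it used strand, is not given in the sources used here. The deposited FPKM were not used for tests. The members and gene lists were chosen with earlier results of these data known, and the lists for pituitary, neuroendocrine, bone and bone marrow genes after the values had been seen.

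The main test was that of edgeR 4.0.16 (R 4.3.3) on the raw counts, with TMM factors, filterByExpr, glmQLFit and glmQLFTest, 4 weeks against the 3 older db/m libraries, Benjamini-Hochberg adjustment over all genes tested, threshold 0.05. The residual degrees of freedom were 2, and the common biological coefficient of variation was 0.226 (0.293 in db/db hearts). CPM values of single genes in db/m libraries use these factors. The db/db values, the sums over lists and the plots by age in CPM use factors over all 8 libraries, by which Col1a1 at 4 weeks in db/m is 451.7 CPM and not 461.5. TMM factors of the db/m libraries were 1.12 at 4 weeks and 0.937 to 0.987 later, and the mitochondrial share of counts was 11.8% at 4 weeks and 14.6% to 16.4% later. A count of 3, taken as the floor, equals 0.208 CPM in the 4-week library and 0.135 to 0.149 CPM in the older ones. Alternatives used limma 3.58.1 (voom), DESeq2 1.42.0, other scalings and filters, and left out each older library. P-values measure the spread between these libraries only.

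Genes were named by rule: up to 10 of the largest falls and rises of at least 50 counts, called first, leaving out predicted genes; called members of a list, or otherwise its 2 members with the most counts; and a fixed set of known genes. Other members of lists named for lying outside the range, C3, Ccnd1, Nppb, Peg3, Mcm5 and further genes not called, were chosen after their values were seen. Promoters are from RefSeq (GRCm38.p6), and overlaps and shared 31-base stretches from GENCODE vM21. By these, mt-Co3 (99.9%), Cpt1b (79.7%, with a read-through gene), Igf2 (61.9%, likewise), Hist2h3b (80.6%), mt-Co1 (63.9%), H2-Q7 (39.1%), Myh1 (37.9%), Myh4 (30.4%), Myh6 (29.2%), H2-D1 (26.7%), Pcna (23.3%), Myh7 (22.9%) and H2-K1 (22.8%) share sequence with other genes, so their values are uncertain. A few genes that the naming rule gives are not reported here.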

Additional observations from a re-analysis of the deposited data

Results flagged for a closer look

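The change after 4 weeks differed between the genotypes by edgeR's interaction test for 3 genes. The difference, db/db minus db/m on the log2 scale, was 5.04 ± 0.34 (SE, adjusted p = 0.012) for Hist2h3c2, 6.59 ± 0.53 (adjusted p = 0.0206) for Atp2a1 and −2.98 ± 0.26 (adjusted p = 0.0245) for Mfap3. All 3 rest on the db/m library of 4 weeks, which cannot be left out, and none passed when both libraries of any later age were left out or with age as a block (adjusted p = 0.0843, 0.115 and 0.207). With 1 library for each genotype and age no group could be searched for samples far from the others.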

How the results depend on the processing

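Within the db/m libraries, directions and sizes were steadier than calls. All 32 called genes kept their direction in each of the 11 other settings that set 4 weeks against the older libraries, and the 13 of them that could be fitted with log2 of age kept it there. Each of these settings used the same 4-week db/m library, from which the calls came, so they cannot test that library. With the db/db libraries in place of db/m, 12 of the 18 called genes that could be fitted kept their direction. Against 27 falls and 5 rises, there were 60 and 6 under scaling by total counts, 29 and 6 with DESeq2 size factors, 240 and 246 with DESeq2's Wald test, 3 and 0 with limma voom, 64 and 11 without a filter, 57 and 10 with all 8 libraries in the fit, and 0 and 0 with log2 of age as a slope (lowest adjusted p 0.143, 1994 genes at an unadjusted p under 0.05). Leaving out 1 older library gave 3 to 771 falls and 0 to 783 rises. Added after the data were seen, the db/db libraries alone and both genotypes together gave 0 and 0.

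The 1198 genes above and 851 below the range became 1890 and 475 under total counts, 2246 and 1329 without a filter, 623 and 313 at 2-fold, 488 and 415 in db/db hearts, and 1412 to 1771 and 1021 to 1287 without 1 older library. The 3 differences between genotypes became 29 with DESeq2's Wald test, 1 with limma voom, 0 without the libraries of any later age and, added after the data were seen, 0 with age as a block across the genotypes. The cause of these shifts was not tested, except that scaling by total counts lowers the median of all genes from 0.02 to −0.2.

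Among the genes followed under every setting, log2 changes that turned sign were all of genes with no call in db/m, apart from Atp2a1 (0.17), Gm20634 (−0.54), Gnas (0.089), Hist2h3c2 (0.35), Mfap3 (−0.06) and St18 (2.23, on at most 25 counts) in db/db hearts. There they were also Actn2 −0.053, Atp2a2 −0.027, Cpxm2 −0.22, Cyp26b1 1.84, Dcn −0.37, Flt1 −0.026, Igf2bp2 −0.16, Mcm5 0.58, Myh7 0.40, Myl7 −0.98, Pdha1 −0.005, Rrm1 0.11, Rxra −0.01, Ryr2 −0.25, Sox4 −0.30, Top2a 0.071, Ttn −0.15 and Zfp865 −0.51. Of further list members named, P4ha1 (−0.42), Casq2 (−0.11), Myom2 (0.17), Bin1 (0.01), Zbp1 (2.66), Irf7 (1.46), Ifit1 (2.20), Ciart (0.88), Comp (−3.73) and Fmod (−4.50) also turned sign there. With both genotypes together they were Cyp26b1 0.14, Dcn −0.14, Myh7 0.15, Ryr2 −0.085 and Sox4 −0.058. Under total counts they were Cd74 −0.059, Dcn −0.11, Dhrs3 −0.18, Flt1 −0.14, Igf2r −0.039, Iigp1 −0.10, Insr −0.19, Pcna −0.14, Rdh10 −0.09 and Ryr2 −0.12, and with log2 of age Dhrs3 −0.042, H19 0.054, Iigp1 −0.15, Insr 0.00, Myh7 0.17 and Sox4 −0.062. Over the 3 leave-outs of an older library the range spanned 0 for Cdkn1a (−0.759 to 1.013), Dcn (−0.009 to 0.192), Dhrs3 (−0.052 to 0.176), Flt1 (−0.215 to 0.236), H19 (−0.438 to 0.090), Igf2bp2 (−0.001 to 0.394), Iigp1 (−0.210 to 0.394), Insr (−0.019 to 0.081) and Myh7 (−0.742 to 0.311). List medians that turned sign with another scaling or 1 library left out were, under total counts, those of the ion channels (0.05 to −0.17), the retinoid genes (0.03 to −0.18) and the nerve markers (0.05 to −0.17), and without the most abundant and mitochondrial genes the liver markers (0.38 to −0.52). Without the 12-week library they were the retinoid genes (−0.01) and liver markers (−0.15), and without the 24-week library the ion channels (−0.02), retinoid genes (−0.05), fibroblasts (−0.06 to 0.04), liver (−0.28) and nerve markers (−0.02). Without the 32-week library they were the fetal and stress genes (0.96 to −0.08), endothelium (−0.08 to 0.07), immediate early genes (0.54 to −0.49), valve (0.94 to −0.71), mesothelial (5.79 to −0.23), white fat (0.54 to −1.52) and liver markers (−1.42). The labels give no replicate numbers, so no pairing by replicate could be fitted, and within db/m hearts an age block would take up the contrast itself. The 4-week db/m library could not be left out, and 3 counts there limit detection at 0.208 CPM.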

Other observations

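Ribosomal protein genes were not lower after 4 weeks. Of 77 tested, 6 stood below the range of the older db/m libraries at 4 weeks and 1 above, with a median log2 change of 0.15 in db/m and 0.29 in db/db hearts.

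Red blood cell genes summed to 574 CPM at 4 weeks and to 299.8, 508 and 212 CPM later in db/m hearts, with 0 of 7 outside the range, while without the library of 24 weeks all 6 tested stood above it at 4 weeks. White fat markers were near 0 in all db/m libraries, with sums of 2.05, 0.483, 0.830 and 4.30 CPM at the 4 ages. B cell markers summed to 17.2, 14.3, 10.6 and 5.04 CPM and 4 of 8 stood above the range at 4 weeks, while 7 of 10 thymus markers had at most 3 counts there. Endothelial and smooth muscle markers had median log2 changes of −0.08 and −0.11, and nerve markers of 0.05. Markers of the epicardium and mesothelium summed to 7.19, 6.90 and 6.59 CPM at 4, 12 and 24 weeks and to 15.9 CPM at 32 weeks. Lung, liver and brown fat markers summed to 0.483, 5.98 and 11.3 CPM at 4 weeks, and to 0.210 to 0.507, 1.79 to 7.82 and 14.9 to 20.9 CPM later.

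Over all genes tested 7.37% stood above the range at 4 weeks and 5.23% below. Of the KEGG pathways of the table counted by their members, the cell cycle had 17 of 114 genes above the range at 4 weeks and 2 below, DNA replication 6 of 33 and 0, extracellular matrix receptor interaction 15 of 73 and 4, and cardiac muscle contraction 3 of 62 and 11. The ribosome had 1 of 127 and 13, the citrate cycle 1 of 28 and 1, fatty acid degradation 1 of 36 and 4, branched-chain amino acid degradation 0 of 46 and 6, glycolysis 6 of 49 and 3, antigen processing 4 of 56 and 6, and retinol metabolism 3 of 20 and 5.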
